A study of Oryza sativa with 6 samples.

Results

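The glycolysis enzymes of the rice grain were taken as the genes whose deposited annotation holds the Gene Ontology term for the glycolytic process. The rule also leaves out LOC_Os05g33570, but this removed no member, since all 78 rows with the term are members. They stand among 55986 rows of the table and are spread over 12 chromosomes. The rule is on annotation and uses no measured value. By their deposited descriptions 66 members belong to 11 steps of the pathway, from hexokinase to pyruvate kinase. The other 12 are 7 subunits of the E1 component of pyruvate dehydrogenase, 2 lactate dehydrogenases, 1 subunit of the mitochondrial processing peptidase and 2 loci with no description. The name of the set therefore covers more than the classic pathway, and enzyme names below are the deposited descriptions, which were not checked against sequence. Of the 66 step members, 36 carry a stated compartment, with 21 described as cytosolic and 15 as plastid.

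The study compared mature grains of a wild type rice line, Zhenong 34, with grains of a mutant called sg34, with 3 messenger RNA libraries from each line. No treatment, mutated gene or allele is named in the labels, so no targeted gene could be examined. The labels do not state that replicates came from separate plants, and p-values therefore measure only the spread between these libraries, which may be technical. Values are TPM, a relative transcript abundance corrected for length, and they keep no sequencing depth.

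Glycolysis splits hexose phosphates into triose phosphates and oxidises them to pyruvate, yielding ATP and NADH. Plants run the pathway in the cytosol and, in part or in full, in plastids, with separate genes for each compartment. In a cereal grain it draws on imported sucrose or on starch and supplies carbon to respiration, to amino acids and to the fatty acids stored as oil, and in the low-oxygen interior of the endosperm it is a main source of ATP.

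Libraries of one line differed widely. Seed storage protein genes (46 glutelin and prolamin rows) took 4.16% of all TPM in wild type replicate 1, against 23.4% to 35.4% in the other 5 libraries. That library also had the highest summed TPM of the 4 Rubisco small subunit rows, a sign of green tissue, with 238 TPM against 15.4 to 50.2 TPM elsewhere. Summed TPM of the 16 chlorophyll a/b-binding protein rows did not follow the lines, at 121, 9.91 and 44.98 in the wild type and 46.2, 128 and 100.3 in the mutant. The 4 oleosin rows, which mark the embryo and the aleurone, took 0.105% to 0.435% of TPM in the wild type and 0.225% to 0.338% in the mutant. The part of these differences in the results below was not tested. In whole grains, fewer cells of a type and less RNA per cell cannot be told apart. To set libraries on one scale, TPM were divided by trimmed mean factors, which ran from 0.702 to 1.66 and are called scaled TPM below. Differences are mutant minus wild type on log2(scaled TPM + 1), which understates changes of weakly expressed genes.

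No glycolysis enzyme passed the test between the lines. Of the 78 members, 64 reached 1 TPM in at least 3 libraries and were tested with limma; 0 were higher and 0 were lower in the mutant at an adjusted p under 0.05. Over all 16917 genes tested, 3.76% were called, 1.89% higher and 1.87% lower. At an unadjusted p under 0.05 stood 4 members (6.25%), against 17.3% of all genes, and the smallest adjusted p of a member was 0.146. Without wild type replicate 1 the count at an unadjusted p under 0.05 was 10 (15.6%, against 17.8% of all genes), and the smallest adjusted p was 0.0691. It was 2 without wild type replicate 3 or mutant replicate 1 (3.12%, against 14.7% and 10.8% of all genes), and 1 without mutant replicate 2 (1.56%, against 10.3%). On the log2(scaled TPM + 1) scale the differences ran from -0.82 to 0.76. For 30 of the 64 members (46.9%) the 95% interval lay wholly within -1 to 1 on that scale, against 54.0% of all genes, and for the other 34 it reached further. For members near 1 TPM such an interval still allows a larger change in TPM itself. The call depended on 1 setting among the 16 alternatives: with library quality weights 5 members were called higher and 6 lower, where 12.6% and 10.5% of all genes were called. Those weights gave 8.97 to mutant replicate 2 and 0.215 to wild type replicate 1, so that fit rests unevenly on the libraries.

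Most members leaned to lower values in the mutant without passing the test. The difference was below 0 for 42 of the 64 members (65.6%), against 50.7% of all genes, and the median was -0.16 against -0.01. Left unscaled, the median of all genes itself stood at -0.43 and that of the members at -0.64, with 58 of 64 below 0 where 80.7% of all genes were. The lean followed abundance. Among the 14 members with a mean above 100 TPM, 13 were below 0 with a median of -0.51, while 66.8% of all genes of that abundance were below 0 with a median of -0.32. Of the 27 members between 10 and 100 TPM, 18 were below 0, and of the 23 tested members under 10 TPM, 11 were. The matching shares over all genes were 54.6% and 47.0%.

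The summed abundance of the 78 members was 10543, 5639 and 9106 TPM in the wild type, by replicate number, and 2957, 4044 and 6507 TPM in the mutant replicates. The highest mutant library lay above the lowest wild type library, so the lines overlapped. In scaled TPM the sums were 6349, 6637 and 7443 in the wild type and 4213, 5222 and 6107 in the mutant, and the lines did not overlap. Abundant members weigh most in such a sum. Glyceraldehyde-3-phosphate dehydrogenase alone held a mean of 2330 out of 6810 in the wild type and 1651 out of 5180 in the mutant. No like sum was computed over other abundant genes. An exact permutation test of 3 libraries against 3 cannot give a two-sided p below 0.1. Scaled values of a single member did not overlap between the lines for 8 members lower and 2 higher in the mutant, together 15.6% of those tested, where 23.6% of all genes were separated (12.7% lower and 10.9% higher). In deposited TPM 6 members were separated as lower and 0 as higher, against 17.0% and 4.59% of all genes. Within each line the members moved with the library. Mutant replicate 3 was the highest mutant library for 54 of the 64 tested members (84.4%, against 76.4% of all genes), and wild type replicate 2 the lowest wild type library for 53 (82.8%, against 74.1%), in deposited TPM. After scaling these counts were 41 and 33 (64.1% and 51.6%, against 38.8% and 33.7% of all genes).

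**Figure D1:**
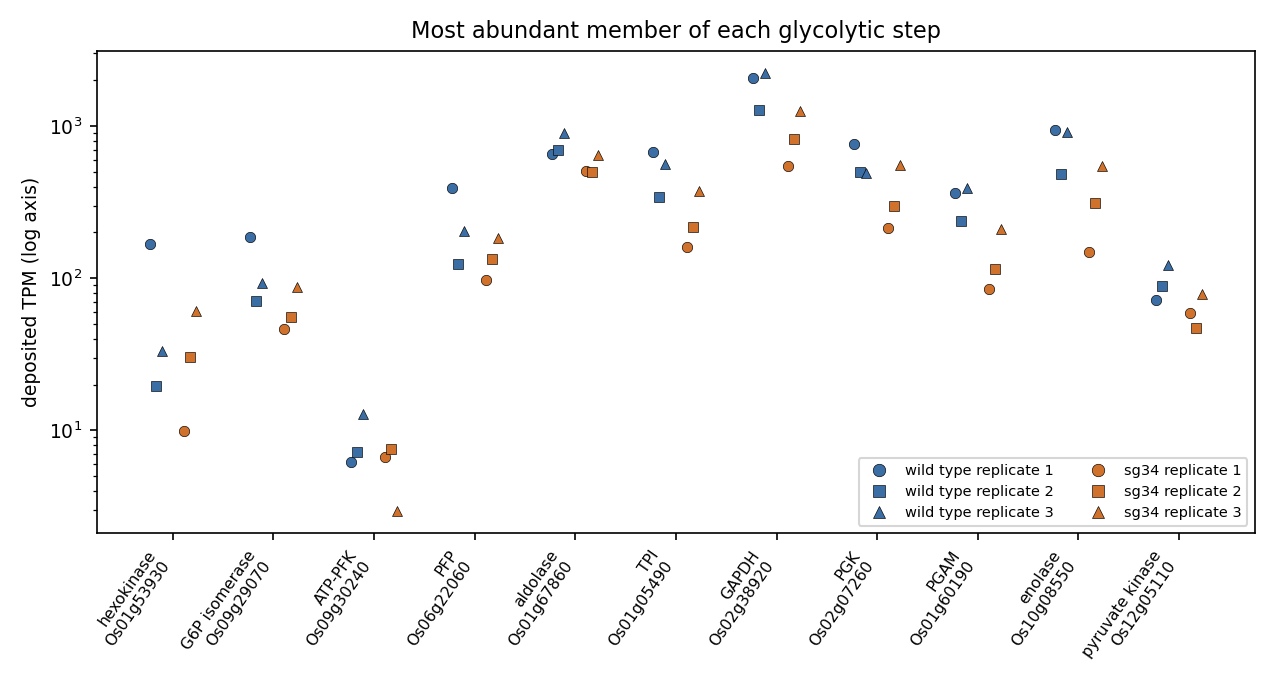
Deposited TPM of the most abundant member of each of the 11 steps, on a log axis, with 1 point per library (3 wild type and 3 sg34 mutant replicates, marked by shape). Glyceraldehyde-3-phosphate dehydrogenase stands highest and phosphofructokinase lowest; the lines are apart for aldolase, LOC_Os02g38920 and phosphoglycerate mutase, and overlap at the other 8 steps.

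The first step, phosphorylation of glucose by hexokinase, held 10 members, of which 7 were tested. The most abundant was hexokinase-6, LOC_Os01g53930, whose rice protein has been studied as a glucose sensor. It stood at 168.9, 19.5 and 33.5 TPM in the wild type and at 9.93, 30.3 and 60.8 TPM in the mutant. Wild type replicate 1 was far above the other libraries, and the lines overlapped. The difference was -0.33 ± 0.69 (SE), with an adjusted p of 0.831, and it was 0.34 without wild type replicate 1. Hexokinase-3, LOC_Os01g71320, had the smallest p of all members. Its deposited values were 27.6, 14.8 and 19.2 TPM in the wild type and 17.1, 17.8 and 31.4 TPM in the mutant, which overlap. After scaling they were 16.6, 17.5 and 15.7 against 24.3, 23.0 and 29.4, and every mutant library lay above every wild type one. The difference of 0.59 ± 0.17, with a 95% interval of 0.18 to 1.001, had an adjusted p of 0.146. It was 0.09 without rescaling of TPM. Hexokinase-7, LOC_Os05g09500, was the other abundant isoform, at 66.8, 28.8 and 65.8 TPM against 6.36, 24.8 and 46.5 TPM, with a difference of -0.80 ± 0.55 and an adjusted p of 0.475. The chloroplast isoform, hexokinase-4, stayed at or below 0.64 TPM in every library, and hexokinase-1 was listed at 0 in all 6.

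Glucose-6-phosphate isomerase interconverts glucose 6-phosphate and fructose 6-phosphate. Its plastid form, LOC_Os09g29070, was the most abundant of 3, at 187.8, 70.5 and 93.1 TPM in the wild type and 46.2, 55.8 and 87.8 TPM in the mutant. The lines overlapped, and the difference was -0.29 ± 0.23 with an adjusted p of 0.535. The cytosolic form B, LOC_Os06g14510, was 96.1, 32.8 and 73.2 TPM against 18.8, 22.9 and 41.9 TPM. Here too wild type replicate 2 lay below mutant replicate 3. The difference of -0.68 ± 0.25, with an interval of -1.28 to -0.086, had an unadjusted p of 0.0306 and an adjusted p of 0.235. Isomerase was the 1 step in which the plastid form outweighed the cytosolic ones in most libraries, with 47.9% to 60.6% of the step.

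Fructose 6-phosphate is phosphorylated by 2 kinds of enzyme in plants: phosphofructokinase, which spends ATP in a committed step, and a reversible phosphotransferase, PFP, which spends pyrophosphate. PFP transcripts predominated in every library, with 94.4%, 94.3% and 93.6% of the TPM of both kinds in the wild type and 89.7%, 91.5% and 94.7% in the mutant. Phosphofructokinase was the weakest step, with 34.3 ± 13.0 TPM summed over 10 members in the wild type (SD, n = 3) and 23.8 ± 0.731 in the mutant. Its most abundant member, LOC_Os09g30240, described as isoform 2, stood at 6.17, 7.22 and 12.9 TPM against 6.65, 7.57 and 2.94 TPM. The highest and the lowest of these were replicates 3 of the wild type and the mutant, the lines overlapped, and the difference was -0.10 ± 0.51 with an adjusted p of 0.935. The regulatory alpha subunit of PFP, LOC_Os06g22060, was 390.2, 124.5 and 205.5 TPM in the wild type and 98.1, 134 and 185.1 TPM in the mutant, a difference of -0.15 ± 0.26 with an adjusted p of 0.781. The catalytic beta subunit, LOC_Os06g13810, was 217, 125.7 and 289.7 TPM against 52.2, 72.1 and 144.2 TPM. In deposited TPM mutant replicate 3 exceeded wild type replicate 2. After scaling mutant replicate 3, at 135, exceeded only wild type replicate 1, at 131. The difference was -0.76 ± 0.33, its interval reached from -1.55 to 0.03, and the adjusted p was 0.307. The beta subunit carried 31.5%, 39.5% and 46.8% of PFP transcripts in the wild type and 25.0%, 27.5% and 35.4% in the mutant, which overlap.

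**Figure D2:**
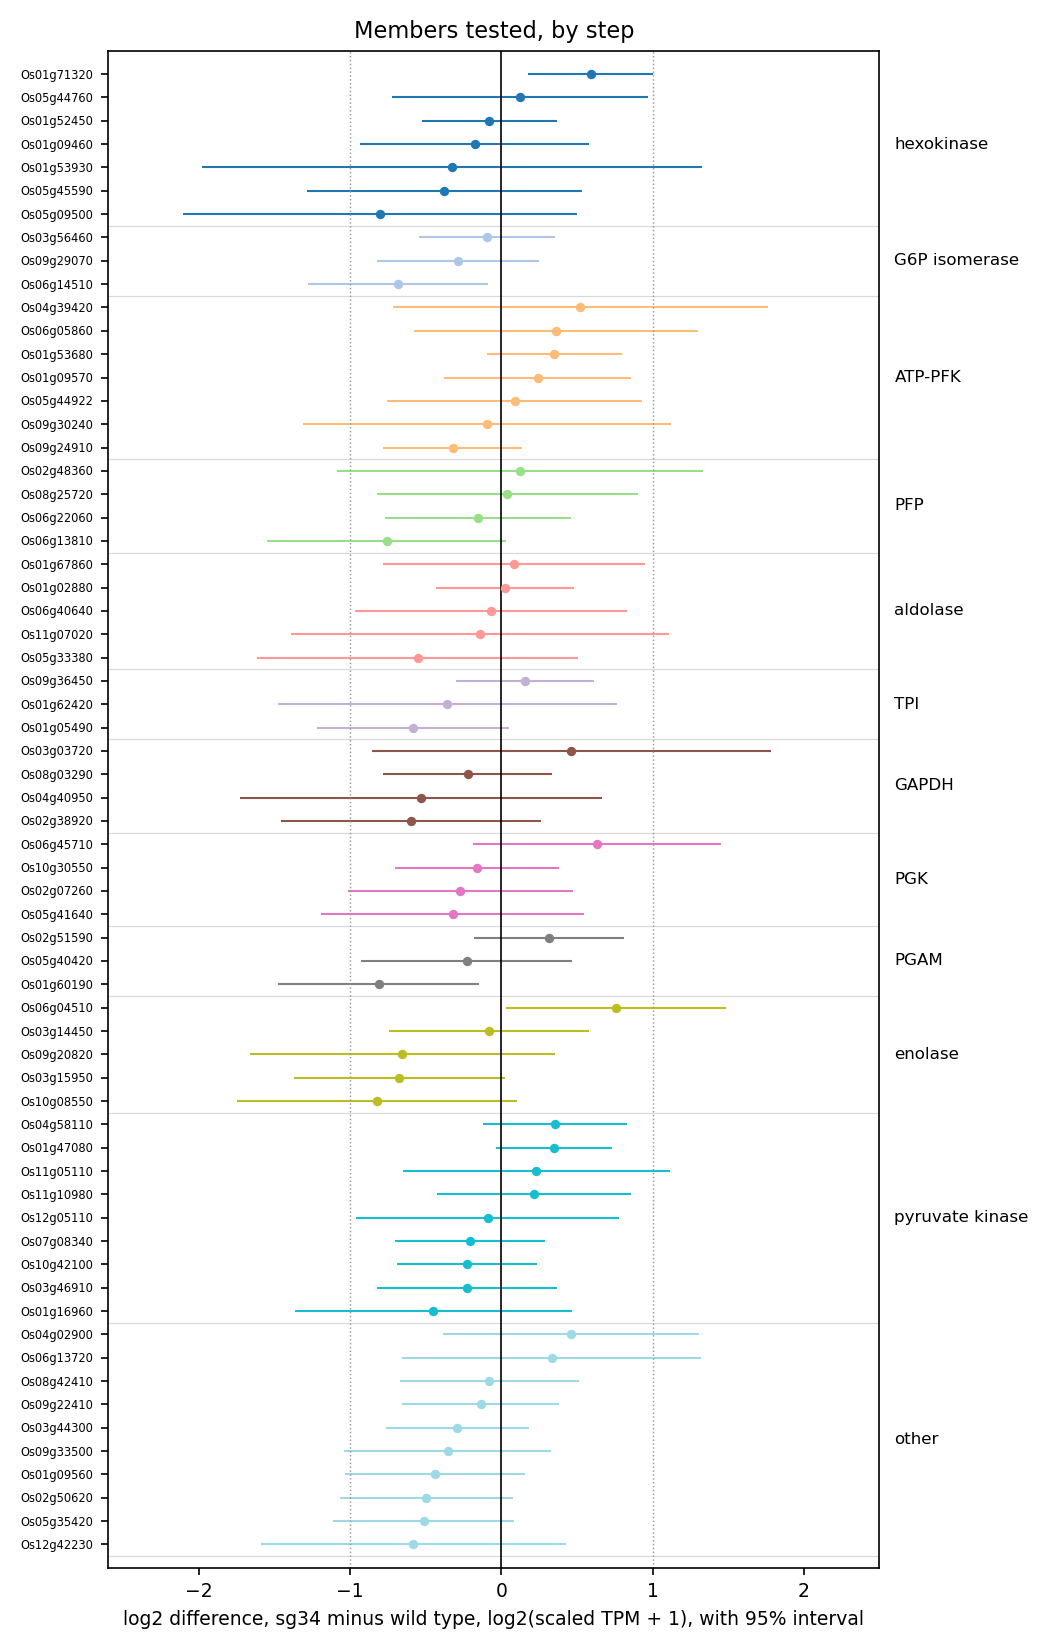
Log2 difference (sg34 mutant minus wild type, on log2(scaled TPM + 1)) of the 64 members tested, 1 line per gene grouped by step; points are limma estimates and bars their 95% intervals, dotted lines mark -1 and 1. Estimates run from -0.82 (an enolase) to 0.76 (another enolase), and 42 of 64 lie left of 0.

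Aldolase cleaves fructose 1,6-bisphosphate into triose phosphates. The cytosolic gene LOC_Os01g67860 supplied most of it, with 658.8, 694.5 and 895.7 TPM in the wild type and 507.8, 499.2 and 642.6 TPM in the mutant. Each deposited mutant value lay below each wild type value. After scaling the lines overlapped, and the difference was 0.08 ± 0.36 with an adjusted p of 0.922. Its direction was not stable: it was -0.44 without rescaling, -0.14 with library weights and -0.23 once wild type replicate 1 was left out. The other abundant cytosolic gene, LOC_Os05g33380, was 347.4, 108.3 and 302.1 TPM against 51.5, 102.8 and 226.5 TPM, a difference of -0.55 ± 0.45. Plastid aldolases contributed little, with 2.16% to 5.20% of the plastid and cytosolic sum. One of them, LOC_Os11g07020, was 25.1 TPM in wild type replicate 1 and 2.62 to 6.35 TPM in the other 5.

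Triosephosphate isomerase balances the triose phosphates. The cytosolic gene LOC_Os01g05490 stood at 673.7, 342.1 and 566.6 TPM in the wild type and 159.5, 218.1 and 371.8 TPM in the mutant. Scaled values separated the lines, at 406, 403 and 463 against 227, 282 and 349. The difference was -0.58 ± 0.27, with an interval of -1.22 to 0.05 and an adjusted p of 0.324. The other cytosolic gene, LOC_Os01g62420, had a difference of -0.36 ± 0.47, and the plastid form, LOC_Os09g36450, one of 0.16 ± 0.19.

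Glyceraldehyde-3-phosphate dehydrogenase, which makes NADH and a phosphoglycerate with an energy-rich bond, was the most abundant step, at 2911 ± 987 TPM in the wild type and 1444 ± 648 in the mutant. The leading cytosolic gene, LOC_Os02g38920, was 2078, 1264 and 2239.6 TPM in the wild type and 546.3, 827.1 and 1258 TPM in the mutant. The lines did not overlap on either scale, although mutant replicate 3 came close to wild type replicate 2 in deposited TPM. The difference of -0.60 ± 0.36, with an interval of -1.46 to 0.26, had an adjusted p of 0.430. The other cytosolic genes, LOC_Os04g40950 and LOC_Os08g03290, had differences of -0.53 ± 0.50 and -0.22 ± 0.24. The cytosolic genes have like descriptions, and their sequences were not compared. Reads shared between them were not measured, and where reads are shared the single values are less certain than the sum. Subunit B of the chloroplast enzyme, which serves photosynthesis, was 13.9, 1.12 and 1.89 TPM against 2.13, 4.71 and 4.34 TPM (LOC_Os03g03720), again highest in wild type replicate 1.

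Phosphoglycerate kinase makes the first ATP of the pathway. The cytosolic gene LOC_Os02g07260 had 763.1, 496.6 and 491.7 TPM in the wild type and 215.2, 300.01 and 551.5 TPM in the mutant. As deposited, mutant replicate 3 exceeded wild type replicates 2 and 3, and after scaling it exceeded wild type replicates 1 and 3. The difference was -0.27 ± 0.31 with an adjusted p of 0.674. A further cytosolic gene, LOC_Os06g45710, held a level of 62.1 to 87.1 TPM in the wild type and 71.6 to 83.4 TPM in the mutant. Its scaled difference was 0.63 ± 0.35, with an adjusted p of 0.393. Its share of the step was 7.29%, 12.5% and 14.8% in the wild type and 27.6%, 18.9% and 12.9% in the mutant, which overlap.

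Phosphoglycerate mutase moves the phosphate within phosphoglycerate, and in plants the main form needs no bisphosphoglycerate cofactor. The cofactor-independent gene LOC_Os01g60190 was 361.5, 237.9 and 389.6 TPM in the wild type and 85.5, 115.5 and 209.7 TPM in the mutant. Every mutant library lay below every wild type library on both scales. The difference was -0.81 ± 0.28, with an interval of -1.47 to -0.15, an unadjusted p of 0.0238 and an adjusted p of 0.209, and it was -1.33 without rescaling. The other cofactor-independent gene, LOC_Os05g40420, was 41.3, 14.0 and 36.8 TPM against 10.9, 14.2 and 28.0 TPM, with a difference of -0.23 ± 0.29.

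Enolase forms phosphoenolpyruvate. Its leading gene, LOC_Os10g08550, showed the lowest difference of all members. It was 938.4, 484.9 and 919 TPM in the wild type and 149.6, 312.8 and 543 TPM in the mutant, where replicate 3 exceeded wild type replicate 2 before scaling and did not after it. The difference of -0.82 ± 0.39 had an interval of -1.75 to 0.11 and an adjusted p of 0.341, and it was -1.34 without rescaling. Cytosolic enolase 3, LOC_Os03g15950, was 64.4, 20.6 and 37.9 TPM against 9.46, 14.6 and 28.1 TPM, with a difference of -0.68 ± 0.29 and an adjusted p of 0.305. The weakly expressed LOC_Os06g04510, described as enolase 1, went the other way, at 2.22, 0.21 and 0.34 TPM against 0.80, 1.79 and 1.65 TPM. In deposited TPM wild type replicate 1 was the highest library. After scaling it lay above mutant replicate 1 alone, at 1.34 against 1.14, so the lines overlapped. The difference was 0.76 ± 0.31 with an adjusted p of 0.272. At this low level the size hung on the value added before the log, with 1.57 for 0.1 and 0.25 for 5, and it was 1.24 with library weights.

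Pyruvate kinase makes pyruvate and the last ATP. Of 10 members 9 were tested, with differences between -0.45 and 0.36. The cytosolic gene LOC_Os12g05110 led with 72.5, 89.2 and 121.3 TPM in the wild type and 58.7, 47.5 and 78.4 TPM in the mutant. In deposited TPM the lines overlapped at wild type replicate 1 and mutant replicate 3. After scaling they also overlapped, with wild type replicate 1, at 43.7, below every mutant library. The difference was -0.09 ± 0.37 with an adjusted p of 0.913. Its value is uncertain where reads are shared with the like-named LOC_Os11g05110, which had a difference of 0.23 ± 0.37. Plastid pyruvate kinase supplies pyruvate for fatty acid synthesis in seeds. Its gene LOC_Os01g47080 was 19.2, 8.81 and 13.0 TPM against 10.6, 9.80 and 15.5 TPM, which overlap, whereas all 3 mutant libraries were higher after scaling. The difference was 0.35 ± 0.16 with an adjusted p of 0.332, and it was -0.14 without rescaling. The plastid forms held 53.8%, 27.0% and 30.4% of plastid and cytosolic pyruvate kinase in the wild type and 30.7%, 36.9% and 36.0% in the mutant.

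**Figure D3:**
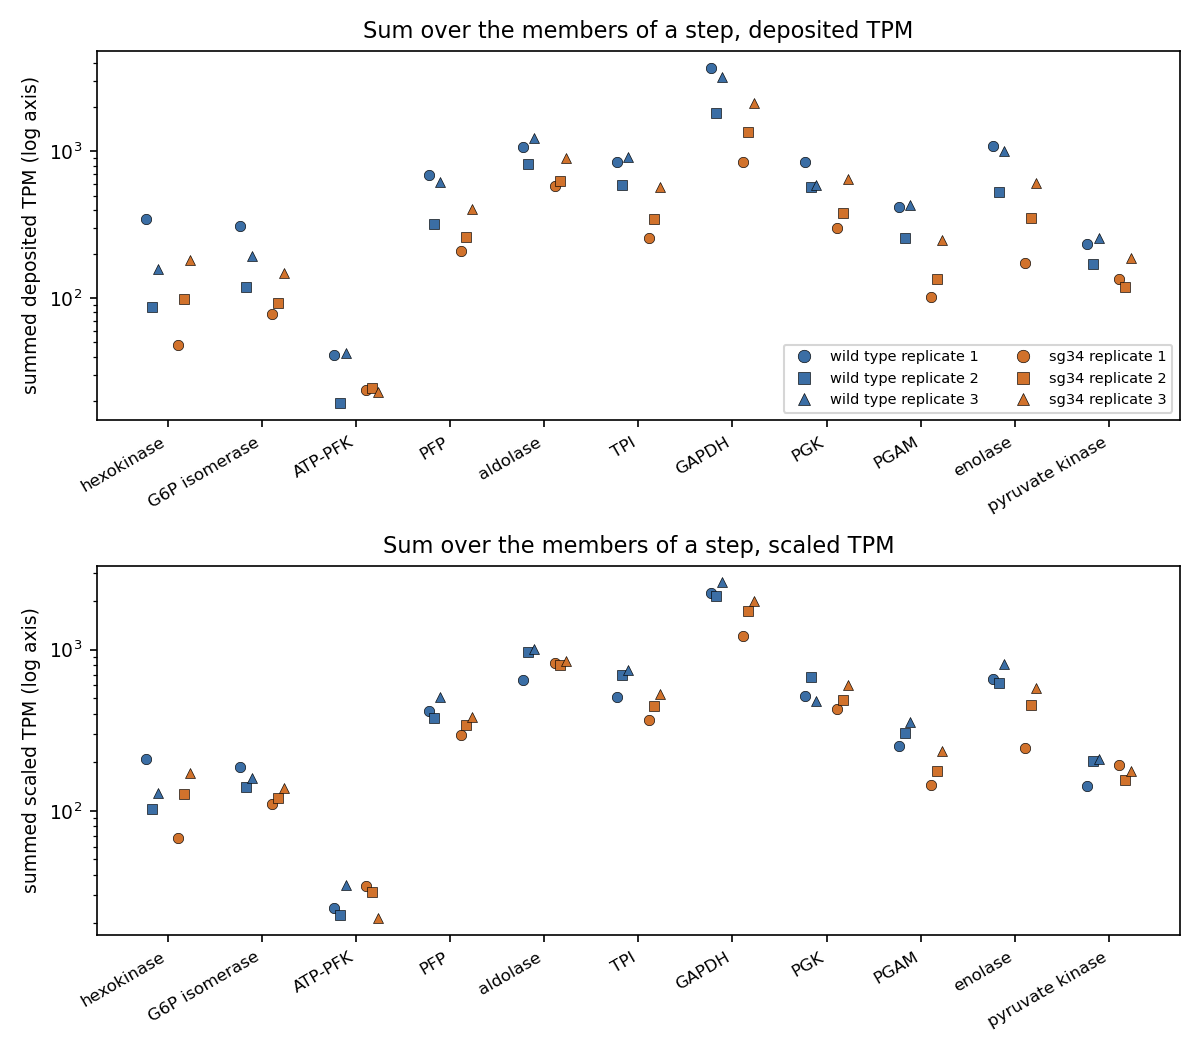
TPM summed over the members of each of the 11 steps, as deposited (upper panel) and after scaling (lower panel), on log axes, with 1 point per library (3 wild type and 3 sg34 replicates). Glyceraldehyde-3-phosphate dehydrogenase has the highest and phosphofructokinase the lowest sum in every library. In deposited sums the lines are apart for triosephosphate isomerase and phosphoglycerate mutase. In scaled sums they are apart for isomerase of glucose 6-phosphate, glyceraldehyde-3-phosphate dehydrogenase, phosphoglycerate mutase and enolase. Like sums over other gene sets were not computed.

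The steps spanned a wide range of abundance in both lines. After glyceraldehyde-3-phosphate dehydrogenase came aldolase, with 1043 ± 207 TPM in the wild type and 701 ± 173 in the mutant. Next in the wild type was enolase with 872 ± 303 in the wild type and 379 ± 221 in the mutant, triosephosphate isomerase with 782 ± 169 and 391 ± 161, and phosphoglycerate kinase with 672 ± 156 and 442 ± 180. The order among these 3 did not exceed their spread in either line. Below them stood PFP with 543 ± 198 and 293 ± 103 TPM, phosphoglycerate mutase with 369 ± 97.6 and 162 ± 76.7, and pyruvate kinase with 221 ± 43.9 and 147 ± 35.5. Isomerase and hexokinase, at 208 ± 96.2 and 197 ± 135 TPM in the wild type, could not be ordered. The median difference of the tested members was lowest for enolase, at -0.65 over 5 genes, and highest for phosphofructokinase, at 0.24 over 7 genes.

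Cytosolic and plastid members had similar medians, and no test was made between them. Of 17 cytosolic members tested, 13 were below 0 with a median of -0.27, and of 12 plastid members 8 were below 0 with a median of -0.22. Plastid forms made up 6.79%, 3.96% and 4.02% of plastid and cytosolic TPM in the wild type and 5.84%, 5.16% and 5.06% in the mutant, and these shares overlapped. Step members with no stated compartment are left out of this comparison, among them the leading enolase, PFP and phosphoglycerate mutase genes. They summed to 1946 ± 682 TPM in the wild type and 938 ± 450 in the mutant (SD, n = 3). Of 25 such members tested, 13 were below 0 with a median of -0.08.

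The share a member holds of its step does not depend on the scaling between libraries. Among 34 members with a mean of at least 10 TPM, the shares of 4 (11.8%) did not overlap between the lines. With 3 libraries against 3, non-overlap in either direction has a probability of 0.1 if the lines do not differ, which is near that share. No such share was computed over all genes. These 4 are therefore given as a description, with no test. Hexokinase-3 held 7.93%, 17.1% and 12.2% of hexokinase transcripts in the wild type and 35.7%, 18.2% and 17.3% in the mutant, where 2 mutant libraries lay just above the highest wild type one. Plastid triosephosphate isomerase held 2.55%, 1.64% and 1.77% of its step against 4.61%, 2.59% and 2.65%, with the same narrow gap. The phosphoglycerate mutase gene LOC_Os01g60190 held 86.6%, 92.5% and 89.9% in the wild type and 83.8%, 84.8% and 84.3% in the mutant. Its partner LOC_Os05g40420 held 9.88%, 5.44% and 8.49% against 10.7%, 10.4% and 11.3%; the mutase shares are not independent, since together they make up nearly the whole step.

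**Figure D4:**
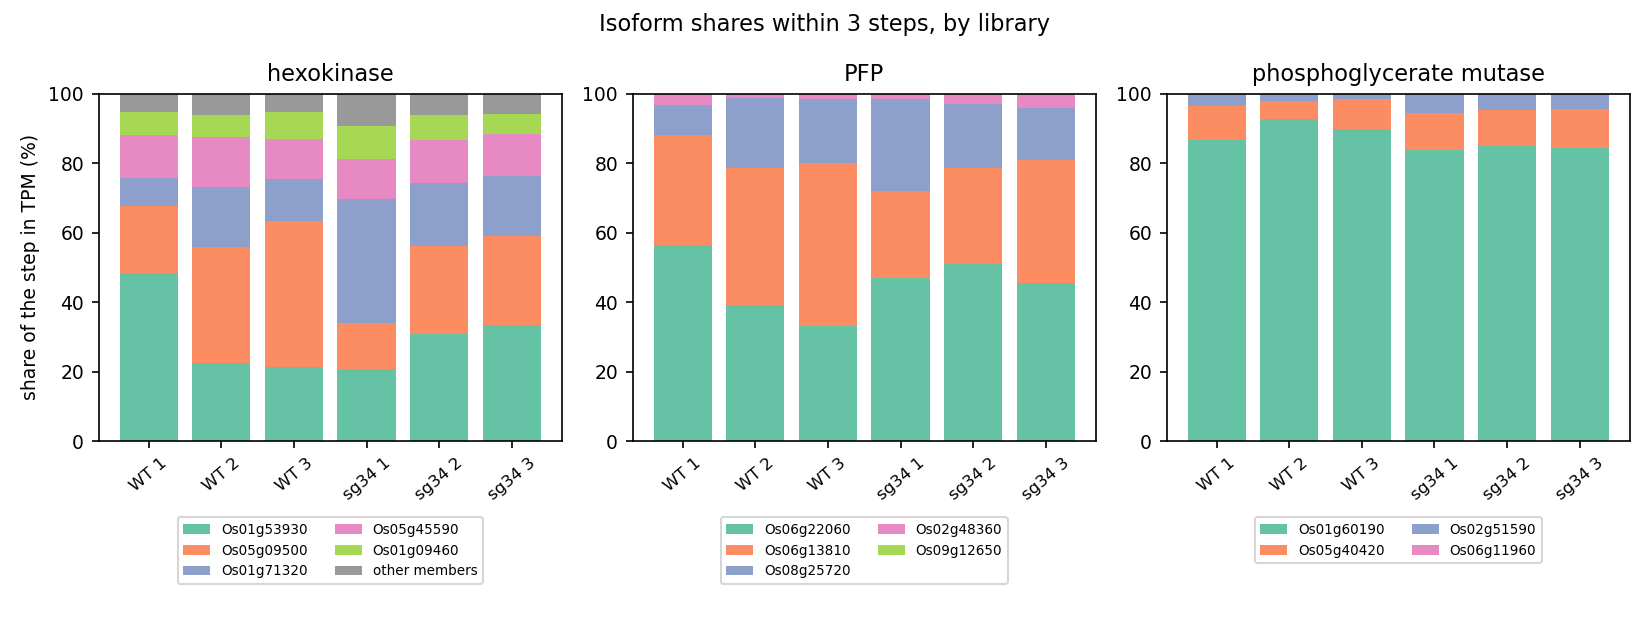
Percent of the TPM of hexokinase, PFP and phosphoglycerate mutase carried by each member, 1 stacked bar per library (3 wild type, 3 sg34 mutant). The hexokinase-3 gene (Os01g71320) spans 7.93% to 17.1% in the wild type and 17.3% to 35.7% in the mutant, and the leading mutase gene (Os01g60190) 86.6% to 92.5% against 83.8% to 84.8%.

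Among the 12 members outside the 11 steps, pyruvate dehydrogenase E1, which starts the conversion of pyruvate to acetyl-CoA, was the most abundant. The mitochondrial alpha-1 subunit, LOC_Os02g50620, was 279.3, 117.7 and 156.4 TPM in the wild type and 57.3, 81.1 and 131 TPM in the mutant. Scaled values did not overlap, and the difference was -0.50 ± 0.24 with an adjusted p of 0.348. The mitochondrial beta-2 subunit, LOC_Os09g33500, and the plastid beta-3 subunit, LOC_Os12g42230, had differences of -0.36 ± 0.29 and -0.58 ± 0.42, while the plastid alpha-3 subunit, LOC_Os04g02900, had one of 0.46 ± 0.36. Neither lactate dehydrogenase, the enzyme that ferments pyruvate to lactate, was tested: LOC_Os02g01510 reached at most 1.5 TPM and LOC_Os06g01590 was listed at 0 in all libraries. The undescribed loci LOC_Os05g35420 and LOC_Os09g22410 had differences of -0.51 ± 0.25 and -0.14 ± 0.22.

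Genes that feed glycolysis or take its products were read from lists of 119 rows chosen by description, of which 78 were tested. The exclusion of LOC_Os05g33570 held for these lists too. It is a pyruvate, phosphate dikinase gene and is not reported here. Of the rows tested, none was called higher and 2 of the 78 were called lower, where 1.89% and 1.87% of all genes were. The count is near that share. Both belong to the phosphoenolpyruvate branch. The housekeeping phosphoenolpyruvate carboxylase, LOC_Os01g55350, which fixes bicarbonate onto phosphoenolpyruvate and refills the citric acid cycle, was 13.5, 6.16 and 9.84 TPM in the wild type and 0.58, 0.98 and 1.22 TPM in the mutant. All mutant libraries were far below all wild type libraries. It fell by 2.09 on the log2 scale (SE 0.17, adjusted p 0.00101), and it was called in all 16 alternatives, with adjusted p-values up to 0.0314 and a difference of -2.76 or -1.07 where 0.1 or 5 instead of 1 was added to each value. The 3 other carboxylases tested did not pass: LOC_Os01g02050 stood at 14.7 ± 1.78 TPM in the wild type and 12.6 ± 3.37 in the mutant, LOC_Os02g14770 at 9.46 ± 3.55 and 7.76 ± 1.49 TPM, and LOC_Os08g27840 at 1.68 ± 1.84 and 1.86 ± 0.745 TPM (SD, n = 3 for each line). Their differences after scaling were 0.25 ± 0.20, 0.26 ± 0.16 and 0.61 ± 0.34, and only LOC_Os02g14770 was separated, as higher in the mutant.

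Phosphoenolpyruvate carboxylase kinase phosphorylates the carboxylase and makes it less sensitive to malate. Kinase 2, LOC_Os02g56310, was 43.5, 10.96 and 14.0 TPM in the wild type and 3.07, 3.46 and 5.28 TPM in the mutant, which do not overlap. It fell by 1.58 on the log2 scale (SE 0.31, adjusted p 0.0449), and the call was lost in 11 of 16 alternatives, with adjusted p-values up to 0.190. Leaving out any library other than wild type replicate 1 lost it. The other kinase rows of the list had differences above 0 and did not pass. They were 0.45 ± 0.44 for LOC_Os02g41580, also described as kinase 2, 0.30 ± 0.24 for kinase 1, LOC_Os04g43710, and 0.77 ± 0.26 for the related kinase PEPKR2, LOC_Os09g29170. The last was 20.1, 19.2 and 18.7 TPM in the wild type and 22.99, 22.1 and 25.7 TPM in the mutant, higher in every mutant library, with an adjusted p of 0.201. Phosphoenolpyruvate carboxykinase, LOC_Os03g15050, which runs from oxaloacetate back to phosphoenolpyruvate and serves gluconeogenesis, was 8.38, 11.4 and 8.81 TPM in the wild type and 25.8, 30.9 and 21.6 TPM in the mutant. Mutant values were higher in all 3 libraries, with a difference of 1.84 ± 0.39, and the adjusted p of 0.0591 missed the threshold. It passed in 3 of the 16 alternatives, with adjusted p-values from 0.00239 to 0.243 over all of them. Enolase and pyruvate kinase, the members that make and use phosphoenolpyruvate within the pathway, had the differences given above, and neither passed.

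**Figure D5:**
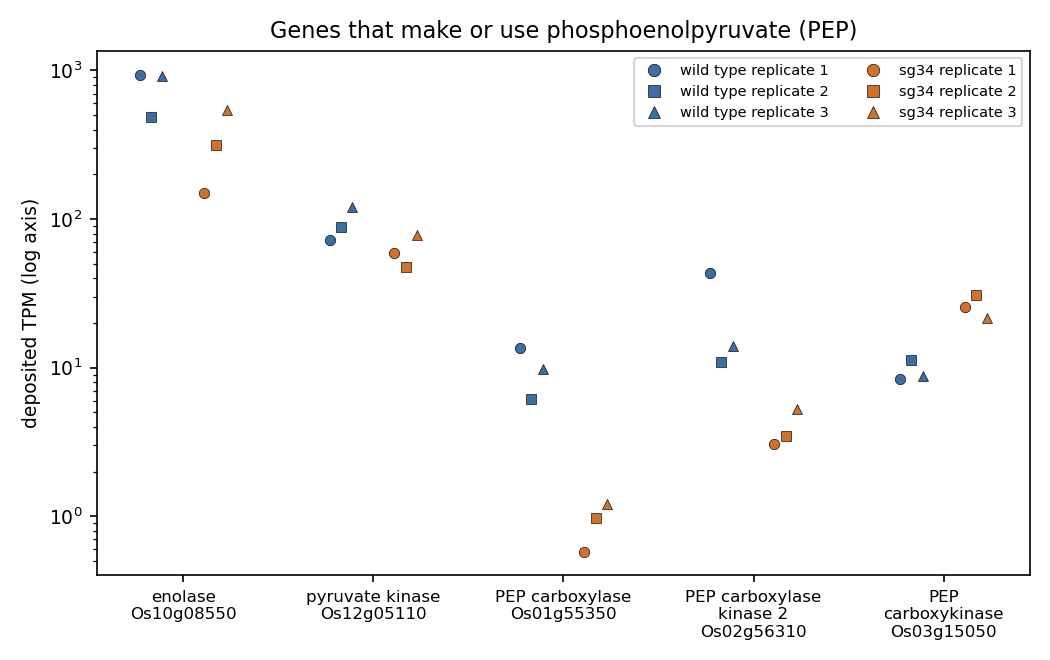
Deposited TPM (log axis) of the leading enolase and pyruvate kinase and of 3 genes of the phosphoenolpyruvate (PEP) branch, with 1 point per library (3 wild type and 3 sg34 mutant replicates). Of the genes shown, the carboxylase LOC_Os01g55350 and the carboxylase kinase LOC_Os02g56310 are lower and the carboxykinase LOC_Os03g15050 is higher in all mutant libraries. The carboxykinase difference had an adjusted p of 0.0591. The other carboxylase and kinase rows tested, not shown, had scaled differences above 0, and none passed.

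In the remaining lists 0 genes passed. Among genes of sucrose and hexose supply, the smallest p fell to the cell wall invertase LOC_Os04g33740 (1.39 ± 0.30, adjusted p 0.0652), sucrose synthase 7, LOC_Os04g17650 (1.40 ± 0.44, adjusted p 0.172), and fructokinase-3, LOC_Os01g63220 (-0.41 ± 0.26, adjusted p 0.440). In sugar phosphate exchange it fell to UDP-glucose pyrophosphorylase LOC_Os02g02560 (-0.69 ± 0.48), plastid phosphoglucomutase LOC_Os10g11140 (-0.46 ± 0.27), cytosolic fructose-1,6-bisphosphatase LOC_Os05g36270 (1.01 ± 0.35) and cytosolic glucose-6-phosphate dehydrogenase LOC_Os02g38840 (-0.85 ± 0.33), with adjusted p-values of 0.483, 0.411, 0.212 and 0.268. Sucrose synthase 7 averaged 0.797 TPM in the wild type and 2.83 in the mutant, and LOC_Os02g02560 averaged 4.54 and 2.06. The most abundant sucrose synthase, LOC_Os07g42490, averaged 1354 and 683 TPM, with a difference of -0.46 ± 0.55. Sucrose synthase 4, LOC_Os03g22120, averaged 333 and 486 TPM, with a difference of 1.07 ± 0.43 and an adjusted p of 0.272. Its deposited values were higher in every mutant library, and its scaled values overlapped. Sucrose synthase 2, LOC_Os06g09450, averaged 495 and 357 TPM, with a difference of 0.008 ± 0.43. The most abundant pyrophosphorylase, LOC_Os09g38030, averaged 684 and 510 TPM, with a difference of 0.10 ± 0.26. The most abundant fructokinase, LOC_Os08g02120, averaged 781 and 321 TPM, with a difference of -0.61 ± 0.49. Cytosolic phosphoglucomutase, LOC_Os03g50480, averaged 412 and 187 TPM, with a difference of -0.59 ± 0.39. Around pyruvate the smallest p fell to pyruvate decarboxylase 1, LOC_Os05g39320 (1.41 ± 0.79, adjusted p 0.404), and pyruvate phosphate dikinase 2, LOC_Os03g31750 (1.40 ± 1.04, adjusted p 0.507). It also fell to an acetyltransferase subunit of pyruvate dehydrogenase, LOC_Os12g08170 (-0.68 ± 0.38, adjusted p 0.397), and D-lactate dehydrogenase LOC_Os07g06890 (-0.33 ± 0.26, adjusted p 0.537). In the citrate synthase list it fell to an ATP-citrate synthase chain, LOC_Os11g47330 (0.29 ± 0.17, adjusted p 0.417). That is a different enzyme, which entered the list by a shared word. Tested rows described as citrate synthase itself had differences of 0.31 ± 0.21 (LOC_Os02g10070), 0.25 ± 0.25 (LOC_Os02g13840) and -0.42 ± 0.25 (LOC_Os11g33240). In the alcohol dehydrogenase list the smallest p fell to alcohol dehydrogenase-like 7, LOC_Os03g09020 (1.88 ± 0.51, adjusted p 0.123). Its description does not name fermentation, and the list also holds cinnamyl alcohol dehydrogenases and alkenal reductases. Rows described as alcohol dehydrogenase 1, LOC_Os11g10480, and 2, LOC_Os11g10510, had differences of -0.18 ± 0.60 and -0.12 ± 0.48. They averaged 99.6 and 52.2 TPM in the wild type and 51.9 and 32.04 in the mutant. The weak LOC_Os11g10520, also described as alcohol dehydrogenase 2, had a difference above 0 with an adjusted p of 0.313.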

How the data were processed

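The authors deposited TPM with 2 decimals for 55986 rice rows, although the table's name speaks of gene counts; library totals were 967528 to 991476. Depth is unknown, since TPM do not keep it, and neither counting intervals nor detection limits could be had; the count test first planned gave way to its limma fallback. Tools named in the submitters' processing notes, without their roles, are Bowtie2, DESeq2 1.12.4, RSEM, HISAT2 2.1.0 and StringTie. The notes name a mouse build, so the build is not given in the sources used here. Mutant columns are named sg31 to sg33 and were read as sg34 replicates 1 to 3, the only mutant. The authors' mean columns differed from these columns in 0 rows, by over 0.0001, and 0 further per-sample columns existed. Correlations between libraries were 0.767 to 0.971.

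The 16917 rows with 1 TPM or more in 3 or more of all 6 libraries were tested; 22090 rows were at 0 throughout. Libraries were scaled by an unweighted trimmed mean of M values, with 30% of M and 5% of A trimmed. Then log2(value + 1) was fitted with limma 3.58.1 in R 4.3.3, with a trend of variance on level, and p-values were adjusted by Benjamini-Hochberg over all rows at 0.05; errors are SE unless SD is named. The code was tested on simulated data. Overlap refers to scaled TPM unless deposited values are named.

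Members and lists were chosen with earlier results of these data known. Named with values are the most abundant member of each step, the 8 with the smallest p, the 5 highest and 5 lowest non-overlapping members of at least 10 TPM in a line, and the neighbour with the smallest p of each list; others were added after their values were seen. Neighbour lists used words of the descriptions, with 1 spelling of glucose-6-phosphate dehydrogenase added after the files were read. Small RNA was not analysed here, and no coordinates or sequences were used.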

Additional observations from a re-analysis of the deposited data

How the results depend on the processing

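Over 16 alternatives the 18 members named by rule and the 3 genes of the phosphoenolpyruvate branch gave 335 values: 298 kept direction and side of the threshold, 10 newly passed, 11 lost the call (all of LOC_Os02g56310) and 16 reversed. Members called were 0 in 15 alternatives and 5 higher and 6 lower with library weights. The members' median was -0.64 without rescaling and -0.43 with TPM set against the total without storage protein rows, a scaling chosen after seeing the data, and -0.27 to -0.08 with 1 library left out. Over all genes, 186 were higher without rescaling; with at least 5 TPM 129 were higher and 140 lower; with library weights 2137 and 1779. With 1 library left out, 165 to 364 were higher and 155 to 370 lower, with 201 and 206 without wild type replicate 3, 175 and 169 without mutant replicate 1, 165 and 155 without mutant replicate 2, and 239 and 182 without mutant replicate 3. These moves include fits on fewer genes or samples; otherwise the cause was not tested.

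Reversed values were -0.14 for LOC_Os01g47080 and -0.44 for LOC_Os01g67860 without rescaling. With library weights they were 0.34 for LOC_Os01g53930, -0.14 for LOC_Os01g67860 and 0.018 for LOC_Os06g22060. LOC_Os01g67860 was -0.22 without storage protein rows. With 1 library left out the ranges were -0.72 to 0.34 for LOC_Os01g53930, -0.23 to 0.28 for LOC_Os01g67860, -0.30 to 0.0497 for LOC_Os06g22060, -0.46 to 0.42 for LOC_Os09g30240 and -0.48 to 0.13 for LOC_Os12g05110.

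Replicate numbers did not pair the libraries: correlations of same-numbered deviations from the line mean were -0.54, 0.003 and -0.37. The deviations of wild type replicate 1 correlated most with those of mutant replicate 3, at 0.57. Under the replicate block 131 genes rose and 123 fell, 0 members were called and the members' median was -0.16. TPM hold no counts, so precision rests on 3 libraries per line alone.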
